A study of Homo sapiens with 20 samples.

Results

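The transcripts of 9 tight junction genes were examined in hTCEpi, a human corneal epithelial line made to divide without limit by telomerase. The 9 genes are CLDN1, CLDN4, CLDN7, CLDN12, OCLN, MARVELD2, F11R, TJP1 and CGN. They were taken by symbol from a table of 60671 genes, and all 9 were found and had enough counts to test. The cells received recombinant human SPARC, a collagen-binding protein that cells secrete into the matrix, at 0.05, 0.5 or 5 µg/ml for 24 h, against a control given 0 µg/ml. Each of the 4 groups held 5 samples of this 1 line, grown in keratinocyte growth medium with added calcium chloride at 0.15 mM. Ribosomal RNA was removed and the rest of the RNA was sequenced, so a value describes RNA and not protein or junction assembly. The labels do not say whether the 5 samples of a group came from separate cultures, so p-values measure the spread between these samples, which may be technical.

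Tight junctions seal the space between neighbouring epithelial cells near their apical surface. In the cornea they form in the outermost cell layer and keep tear fluid out of the tissue. Claudins are membrane proteins with 4 spans that join across the gap and set which ions pass; occludin and tricellulin are related MARVEL-domain proteins, and JAM-A is an immunoglobulin-like adhesion protein. The scaffolds ZO-1 and cingulin bind these membrane proteins from inside the cell and link them to actin.

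At 5 µg/ml SPARC, CLDN1 RNA fell to 0.698 of the control level, and CLDN12 and TJP1 RNA rose to 1.20 and 1.12 times the control level. CLDN1 was the most abundant of the 9 transcripts per length, so the summed counts of the claudins were lower too. The other 6 genes passed no test at any dose with edgeR. In the main edgeR fit TJP1, which encodes ZO-1, was the only one of the 9 called at 0.5 µg/ml. With no filter on low counts, or with replicate numbers in the model, edgeR also called CLDN1 lower at this dose. A correction for GC content and length lost the TJP1 call at 0.5 µg/ml (adjusted p = 0.0839, edgeR). It also lost the CLDN12 call at 5 µg/ml (adjusted p = 0.0612), as did leaving out control replicate 3 (adjusted p = 0.0626).

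The promoters of the 3 genes that changed are shown because these are the members whose RNA moved with dose. They are the 250 bases before the RefSeq transcription start (GRCh38.p14), 5′ to 3′ on the strand of the gene. CLDN1 lies at chr3:190322447-190322696 on the minus strand, CLDN12 at chr7:90403211-90403460 on the plus strand and TJP1 at chr15:29969050-29969299 on the minus strand. For TJP1 this is the most upstream of 4 start sites in the table. Capitals mark GGGCGG, the GC box of SP and KLF factors, CAGGTG, the E-box of the SNAI and ZEB repressors, and the site of the factor ZNF143, on either strand.
CLDN1: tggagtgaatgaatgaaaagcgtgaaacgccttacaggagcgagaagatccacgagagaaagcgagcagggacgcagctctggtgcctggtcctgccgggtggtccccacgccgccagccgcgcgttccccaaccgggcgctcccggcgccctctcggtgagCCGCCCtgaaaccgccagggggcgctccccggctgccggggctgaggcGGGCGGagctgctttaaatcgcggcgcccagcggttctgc
CLDN12: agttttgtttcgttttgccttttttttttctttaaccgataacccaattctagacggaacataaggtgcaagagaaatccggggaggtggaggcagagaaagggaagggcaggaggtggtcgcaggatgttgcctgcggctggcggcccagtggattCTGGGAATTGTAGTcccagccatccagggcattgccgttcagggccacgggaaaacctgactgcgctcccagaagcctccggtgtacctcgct
TJP1: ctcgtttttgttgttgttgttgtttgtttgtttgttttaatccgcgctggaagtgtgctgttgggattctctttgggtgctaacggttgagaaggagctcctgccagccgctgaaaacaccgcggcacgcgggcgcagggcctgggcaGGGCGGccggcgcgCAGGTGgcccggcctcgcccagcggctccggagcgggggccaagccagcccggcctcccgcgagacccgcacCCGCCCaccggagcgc
The CLDN1 window held GGGCGG at -88 to -83 and at -40 to -35, counted back from the start, and its GC content was 68.8%. The TJP1 window held CAGGTG at -88 to -83 and GGGCGG at -102 to -97 and at -16 to -11. The CLDN12 window held no GGGCGG and no CAGGTG, and the ZNF143 site stood at -93 to -80. That motif was added after the sequence had been read. Of all 35116 windows of this length, 42.6% held GGGCGG, 17.5% held CAGGTG and 0.504% held the ZNF143 site, counting both strands.

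Windows were found for 8 of the 9 genes, 13 windows in all; F11R had none in the table. GGGCGG stood in a window of 7 of these 8 genes, and CAGGTG in a window of 3, CLDN7, OCLN and TJP1. These counts are per gene, while the shares of all windows are per window. TJP1 had 4 windows and CLDN7 and OCLN 2 each, so these genes had more places for a match than those with 1. TGANTCA, the AP-1 site, stood in CLDN4 alone, against 6.57% of all windows. Neither AACCGGTT, the Grainyhead-like site, nor GGAATG, the TEAD site, was in any window of the 8 genes, against 0.117% and 11.9% of all windows. The 3 printed windows had no motif of this set in common. A motif match is a string of letters in the window and does not show that a factor binds there.

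Levels were set in CPM, the reads of a gene set to a common library size and scaled by trimmed means of M values (TMM), and, to compare genes with each other, in CPM per kb of annotated exon. In control samples CLDN1 had 77.6 ± 5.06 CPM per kb (SD, n = 5 in each group throughout). TJP1 came next with 16.1 ± 0.285 CPM per kb, and MARVELD2 and F11R followed with 8.31 ± 0.571 and 8.10 ± 0.283 CPM per kb. CLDN12 had 3.34 ± 0.521 CPM per kb in control. CLDN7 and CGN had 1.01 ± 0.307 and 0.905 ± 0.141 CPM per kb, and OCLN and CLDN4 had the lowest means with 0.451 ± 0.0988 and 0.274 ± 0.0892 CPM per kb. MARVELD2 could not be ordered against F11R, nor CLDN7 against CGN, because their control samples overlapped. The control samples of OCLN also overlapped those of CLDN7 and of CLDN4. At 5 µg/ml CLDN1 stayed highest with 54.1 ± 1.96 CPM per kb and TJP1 second with 18.1 ± 0.417 CPM per kb.

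**Figure D1:**
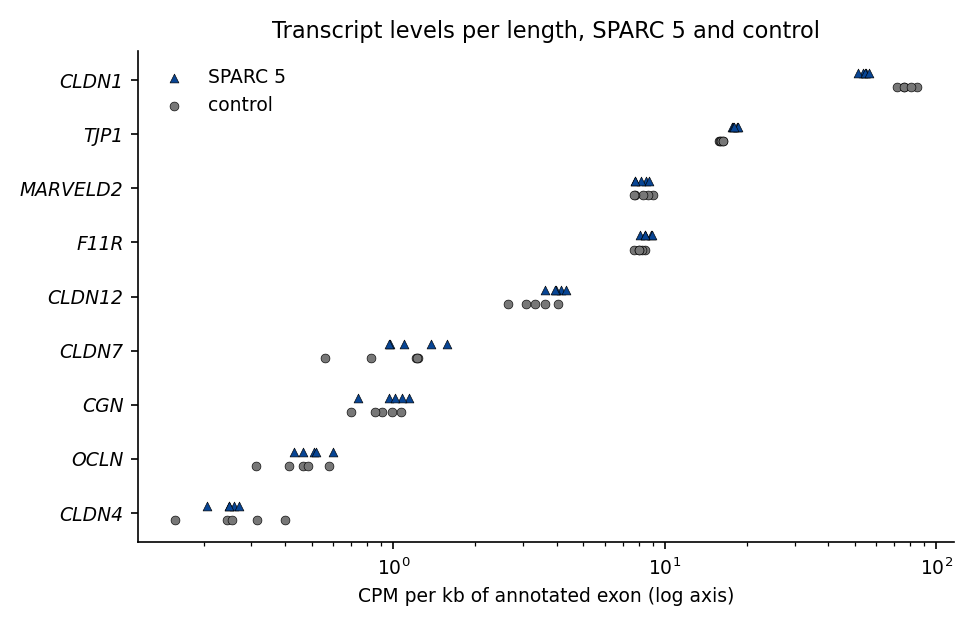
Level of each of the 9 transcripts in the 5 samples at 5 µg/ml SPARC (triangles) and the 5 control samples (circles), in CPM per kb of annotated exon on a log axis. CLDN1 averaged 54.1 CPM per kb at SPARC 5 and 77.6 in control, and the triangles of CLDN1 and TJP1 do not overlap the circles.

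The spread between samples set how small a change could be seen in each gene. Counts per sample were 6275 to 11899 for CLDN1 and 5942 to 9889 for TJP1, but 24 to 66 for CLDN4, 50 to 141 for CLDN7 and 70 to 185 for OCLN. The biological coefficient of variation was 3.1% for TJP1, 5.94% for CLDN1 and 6.72% for CLDN12. It was 11.5% for CGN, 14.5% for OCLN, 18.2% for CLDN7 and 24% for CLDN4, so the scarcest transcripts also had the widest intervals.

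The cells were checked against markers of their labelled type and of other types. KRT5, a keratin of basal stratified epithelium, averaged 11273 ± 223 CPM over the 20 samples, and PAX6, the eye field factor, 7.56 ± 0.808 CPM. KRT12 and KRT3, the keratins of differentiated corneal epithelium, had 0 to 4 and 43 to 87 counts per sample. Of 7 corneal epithelial markers tested, 2 rose and 2 fell at 5 µg/ml over control. KRT14, the basal partner of KRT5, had 435 to 538 CPM at 5 µg/ml and 314 to 374 CPM in control (log2 0.49 ± 0.06; adjusted p = 3.92e-05, edgeR), and at 0.05 and 0.5 µg/ml it was not called. TP63, a transcription factor of basal cells, averaged 283 CPM at 5 µg/ml and 266 CPM in control (0.09 ± 0.02; adjusted p = 0.00536), a call lost with library sizes alone as the scaling (0.04, adjusted p = 0.266), with the correction for GC content and length (0.03, adjusted p = 0.525) and with no filter (0.09, adjusted p = 0.0592). CLU, clusterin, fell to 10.9 CPM at 5 µg/ml, against 15.5 CPM in control (-0.52 ± 0.08; adjusted p = 1.41e-06). ALDH3A1, a corneal crystallin, fell to 3.82 CPM, against 6.89 CPM in control (-0.85 ± 0.12; adjusted p = 3.02e-08). The summed level of the corneal markers, mostly KRT5, was 11859 to 12312 CPM at 5 µg/ml and 11434 to 12293 CPM in control.

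Of 5 markers of epithelia in general, EPCAM and KRT18 fell at 5 µg/ml over control, and their list summed to 442 to 464 CPM at 5 µg/ml and 482 to 518 CPM in control. KRT18, a keratin of simple epithelia, averaged 272 CPM at 5 µg/ml and 305 CPM in control (log2 -0.17 ± 0.02; adjusted p = 1.72e-07, edgeR). These marker changes came at the same dose as those of the claudins, and their part in the results on the 9 genes was not tested.

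Of 30 markers of conjunctival, stromal, endothelial, immune and pigment cells, 12 had enough counts to test. At 5 µg/ml over control edgeR called 0 of the 12, against 11.6% of all genes. Of the 12, 2 had an unadjusted edgeR p under 0.05, against 22.4% of all genes. DESeq2 called 0 of the 9 to which it gave an adjusted p. COL1A1, a collagen chain and the 1 stromal fibroblast marker tested of 7, was higher at 5 µg/ml, with 6.18 CPM, than at 0.05 µg/ml, with 3.89 CPM (log2 0.66 ± 0.14; adjusted p = 0.000167, edgeR). It was also higher at 5 µg/ml than at 0.5 µg/ml, with 4.58 CPM (0.44 ± 0.13; adjusted p = 0.0333), a call lost without SPARC 5 replicate 3, 4 or 5 or SPARC 0.5 replicate 3, 4 or 5 (0.312 to 0.450; adjusted p = 0.0544 to 0.24). The stromal list summed to 4.63 to 6.23 CPM in control, 3.44 to 4.86 at 0.05, 3.00 to 6.87 at 0.5 and 5.58 to 7.79 CPM at 5 µg/ml, while KERA, LUM and PDGFRA had under 10 counts in every sample. PECAM1, an endothelial marker, fell by 0.33 ± 0.12 per dose step (adjusted p = 0.048), and this trend was lost in 12 of 20 fits with 1 library left out, those without control replicate 1, 2, 3 or 5, SPARC 0.05 replicate 3, 4 or 5, SPARC 0.5 replicate 3 or 4 or SPARC 5 replicate 2, 3 or 4 (-0.345 to -0.280), and with no filter on low counts (adjusted p = 0.0891). The endothelial list summed to 0.597 to 2.39 CPM at 5 µg/ml and 1.66 to 2.24 CPM in control. KERA and TFF1 had 0 counts in every sample. The part of COL1A1 and PECAM1 in the results on the 9 genes was not tested.

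Total counts per sample were 31955358 to 50112286. On the second principal component, replicates 2 and 5 of SPARC 5 stood at 48.23 and -40.11, with the other samples between -26.52 and 12.53. For 15098 genes, the deviation of each library's log2 CPM from the gene's mean over the 20 samples was taken. This deviation compares libraries with each other and does not give how level depends on GC content. Its correlation with GC content averaged 0.128 ± 0.106 in control libraries. The correlation averaged -0.035 ± 0.032 in SPARC 0.05, -0.06 ± 0.043 in SPARC 0.5 and -0.04 ± 0.084 in SPARC 5 libraries.

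Claudins were compared first. CLDN1 encodes claudin-1, which is needed for the water barrier of the epidermis in mice. It lies at chr3:190305701-190322475 on the minus strand of GRCh38. CLDN1 had 310, 277, 262, 277 and 294 CPM in control samples and 289, 250, 251, 264 and 268 CPM at 0.05 µg/ml. It had 289, 250, 238, 247 and 263 CPM at 0.5 µg/ml and 201, 196, 188, 200 and 207 CPM at 5 µg/ml. All 5 samples at 5 µg/ml were below every sample of the other 3 groups, while the samples of those 3 groups overlapped. The log2 fold change at 5 µg/ml over control was -0.52 ± 0.06 (SE; 95% interval -0.64 to -0.40; adjusted p = 2.88e-06, edgeR quasi-likelihood F-test with Benjamini-Hochberg adjustment over 22938 genes). Of the 9 genes, 3 passed at this dose, against 11.6% of all genes tested; 1 of the 9 fell, against 4.58% of all genes, and 2 rose, against 7.04%. In bulk RNA, fewer cells that carry a transcript and less of it per cell cannot be told apart.

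The smaller doses gave CLDN1 log2 fold changes of -0.10 ± 0.05 at 0.05 µg/ml (adjusted p = 0.613) and -0.14 ± 0.05 at 0.5 µg/ml (interval -0.26 to -0.03; adjusted p = 0.233, edgeR). Neither passed the threshold of 0.05 in this main fit, but other edgeR settings did call CLDN1. At 0.5 µg/ml it passed with no filter on low counts (-0.14, adjusted p = 0.0013). With the replicate number added to the model it passed at 0.5 µg/ml (-0.14, adjusted p = 0.000114) and at 0.05 µg/ml (-0.10, adjusted p = 0.0347). Whether these numbers pair the samples is not given by the labels. In the authors' deposited table, CLDN1 had a log2 fold change of -0.15 at 0.5 µg/ml with an adjusted p of 0.0129 over 16045 genes, so the call at this dose differs between the analyses. Without SPARC 0.5 replicate 1, the highest sample of its group, the edgeR value was -0.19 with an adjusted p of 0.0494. Between doses, 5 µg/ml was lower than 0.5 µg/ml by a log2 fold change of -0.38 ± 0.06 (adjusted p = 0.000261) and lower than 0.05 µg/ml by -0.42 ± 0.06 (adjusted p = 5.22e-05, edgeR), with no overlap of samples in either pair.

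CLDN12 encodes claudin-12, an atypical claudin that lacks the C-terminal motif by which most claudins bind ZO scaffolds. It lies at chr7:90383721-90513402 on the plus strand. CLDN12 had 27.1, 20.8, 17.8, 24.3 and 22.4 CPM in control samples, and 22.5, 25.03, 23.8, 22.6 and 22.5 CPM at 0.05 µg/ml. It had 24.4, 20.7, 22.2, 20.0 and 21.7 CPM at 0.5 µg/ml and 27.8, 26.7, 24.4, 29.2 and 26.6 CPM at 5 µg/ml. The samples at 5 µg/ml all lay above the control mean, but the highest control sample lay inside their range, and the control group was the widest of the 4. CLDN12 rose at 5 µg/ml over control by a log2 fold change of 0.26 ± 0.07 (interval 0.13 to 0.40; adjusted p = 0.00446, edgeR). Without control replicate 3, the lowest control sample, the value was 0.19 with an adjusted p of 0.0626, and with a correction for GC content and length it was 0.18 with an adjusted p of 0.0612. Against 0.5 µg/ml, CLDN12 was higher at 5 µg/ml by 0.31 ± 0.07 (adjusted p = 0.00122), with no overlap of samples.

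Annotated exons of CLDN12 share 201 bases with CDK14 and 347 bases with GTPBP10, both on the same strand, so reads in those stretches have no single source. CDK14, a cyclin-dependent kinase, averaged 7.43 CPM at 5 µg/ml and 4.57 CPM in control, a rise of 0.70 ± 0.12 (adjusted p = 2.67e-06, edgeR). GTPBP10 had a log2 fold change of 0.03 ± 0.06 (adjusted p = 0.831). Both neighbours were looked at because of the overlap, and the part of the CDK14 overlap in the CLDN12 value was not tested.

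CLDN4 and CLDN7, claudins known to tighten epithelia against sodium and to shape chloride passage in the kidney, were scarce here. CLDN4 averaged 1.29 ± 0.420 CPM in control, 1.36 ± 0.416 at 0.05, 1.24 ± 0.292 at 0.5 and 1.16 ± 0.114 CPM at 5 µg/ml. CLDN7 averaged 2.52 ± 0.764, 2.73 ± 0.744, 2.53 ± 0.339 and 2.98 ± 0.677 CPM in the same order. Their log2 fold changes at 5 µg/ml were -0.14 ± 0.25 (interval -0.65 to 0.36) and 0.24 ± 0.19 (interval -0.13 to 0.61), with adjusted p of 0.814 and 0.513 (edgeR). Single libraries moved these values: CLDN4 was -0.296 without control replicate 3 and 0.028 without control replicate 5, and CLDN7 was 0.079 without control replicate 1, 0.117 without SPARC 5 replicate 2, 0.315 without control replicate 3 and -0.01 without SPARC 5 replicates 2 and 5. Neither gene was called in any of these fits. A fall of the size seen for CLDN1 lay inside the interval of CLDN4 and outside that of CLDN7.

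**Figure D2:**
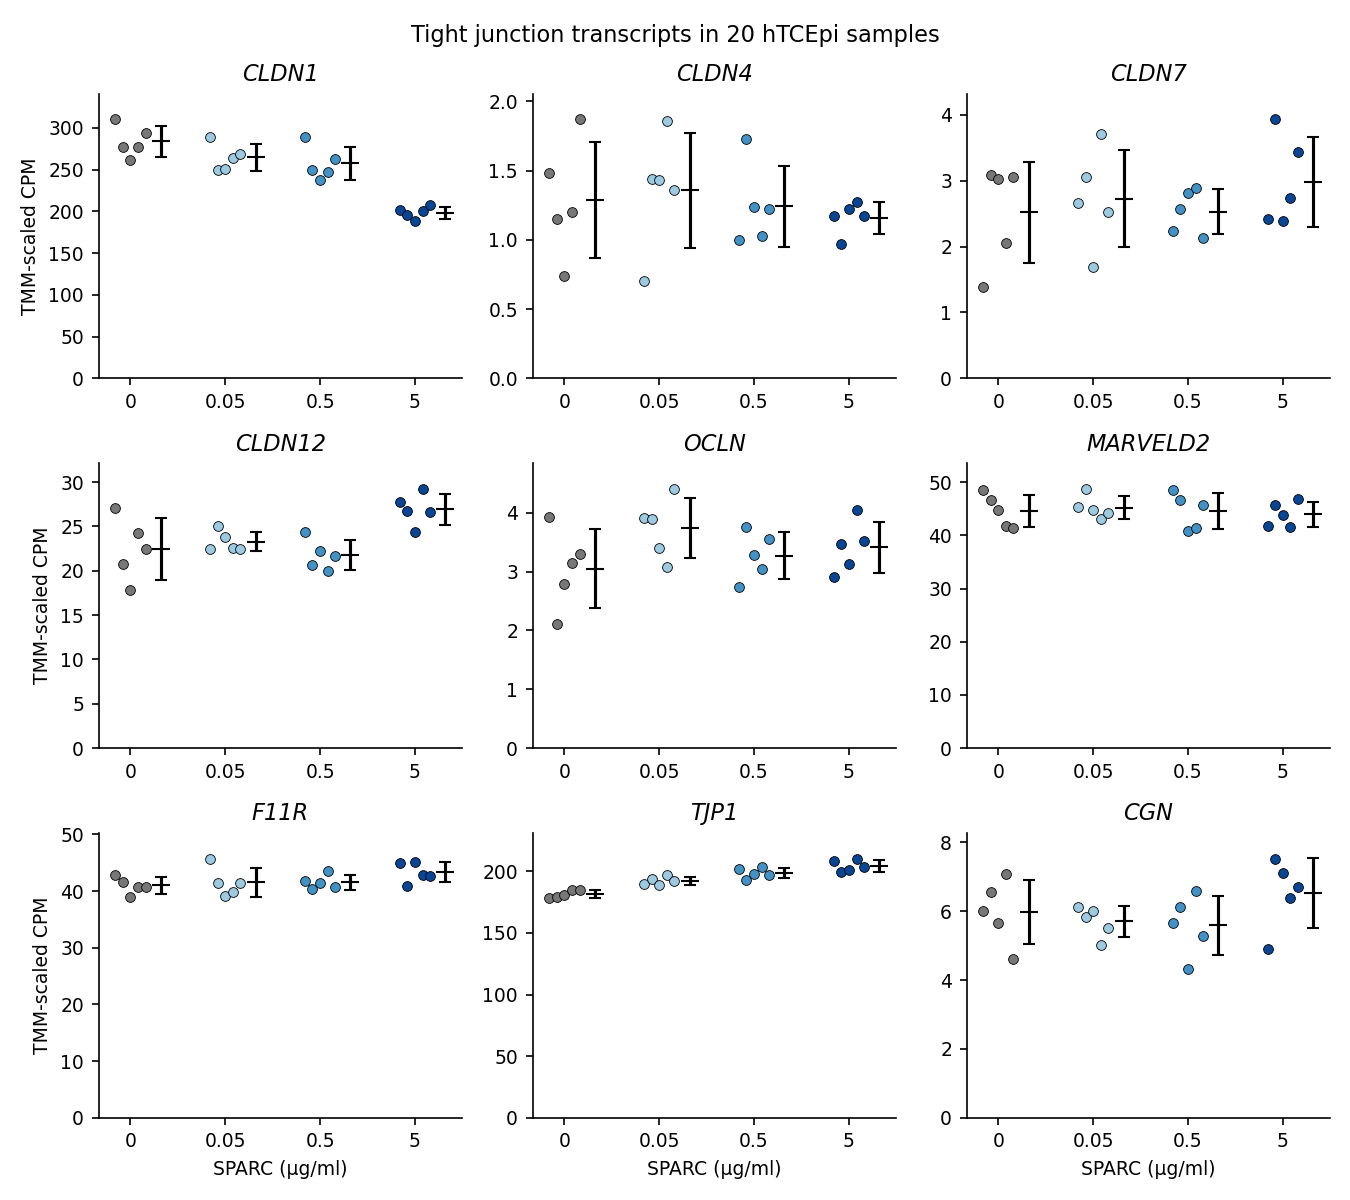
TMM-scaled CPM of each of the 9 transcripts in every sample (points) by SPARC dose in µg/ml, with the group mean and SD beside the points (n = 5). CLDN1 at 5 µg/ml spans 188 to 207 CPM, below all other samples, and TJP1 spans 178 to 185 CPM in control, below all treated samples.

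The makeup of the claudin pool differed at 5 µg/ml. CLDN1, CLDN4, CLDN7 and CLDN12 together had 310 ± 21.4 CPM in control, 292 ± 14.8 at 0.05, 283 ± 20.6 at 0.5 and 229 ± 8.53 CPM at 5 µg/ml. Of the counts of these 4 genes, CLDN1 took 91.5 ± 0.552% in control, 90.6 ± 0.879% at 0.05, 91.0 ± 0.518% at 0.5 and 86.5 ± 0.536% at 5 µg/ml. CLDN12 took 7.22 ± 0.739%, 8.00 ± 0.734%, 7.70 ± 0.407% and 11.7 ± 0.554% in the same order. At 5 µg/ml the CLDN1 share was 85.8% to 87.0%, below the lowest share in the other groups, 89.4%, and CLDN1 remained the main claudin RNA of the pool. Per kb of exon, the CLDN1 share was 94.4%, 93.7%, 94.0% and 90.9% from 0 to 5 µg/ml. These shares are given as a description, since CLDN1 and CLDN12 each changed.

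**Figure D3:**
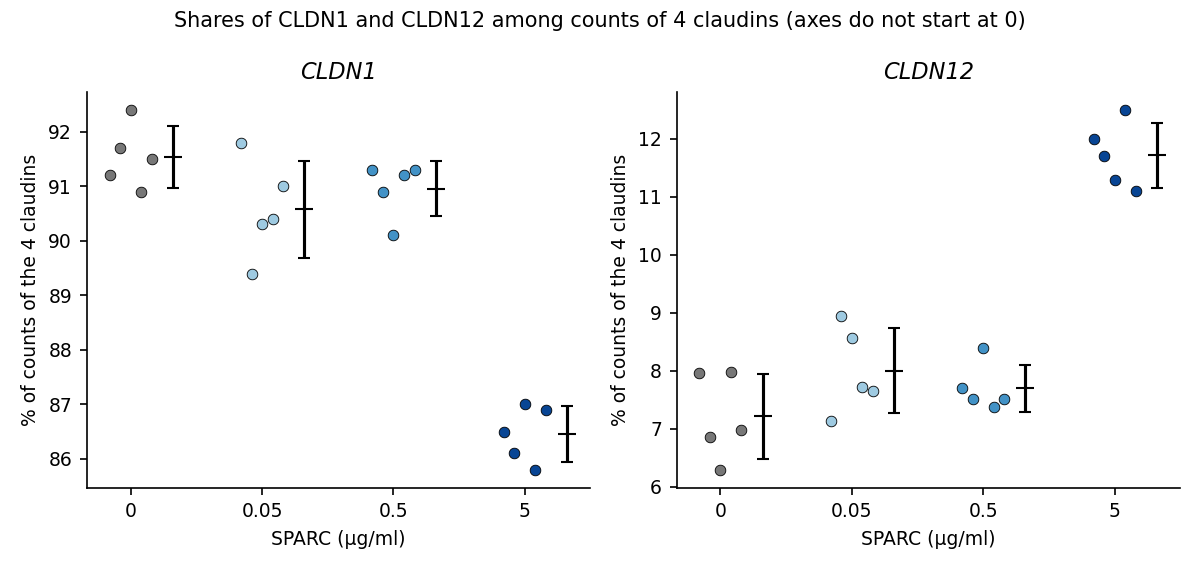
Share of CLDN1 (left) and CLDN12 (right) in the summed counts of CLDN1, CLDN4, CLDN7 and CLDN12, in percent, in each sample by SPARC dose in µg/ml, with mean and SD (n = 5). The axes do not start at 0; at 5 µg/ml CLDN1 holds 85.8% to 87.0% and CLDN12 11.1% to 12.5%.

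Of the other 20 claudin genes listed, 10 had enough counts to test, and edgeR and DESeq2 called none at 5 µg/ml. None of the 10 had an unadjusted edgeR p under 0.05, against 22.4% of all genes. The 3 of them at or above 1 CPM, chosen by level, were CLDN23, CLDN15 and CLDN20. CLDN23 averaged 8.81 CPM at 5 µg/ml and 8.87 CPM in control, CLDN15 averaged 4.27 and 4.91 CPM, and CLDN20 1.56 and 1.43 CPM. Their log2 fold changes were -0.01 ± 0.10, -0.20 ± 0.13 and 0.12 ± 0.22.

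Among the other membrane proteins, none of the 3 genes passed the test. OCLN, which encodes occludin, had 3.93, 2.11, 2.78, 3.14 and 3.29 CPM in control samples and 3.91, 3.90, 3.40, 3.08 and 4.40 CPM at 0.05 µg/ml. Its largest difference was at this dose, 0.30 ± 0.15 on the log2 scale (adjusted p = 0.575, edgeR), and the groups overlapped; at 5 µg/ml it was 0.16 ± 0.16 (interval -0.15 to 0.47). A pseudogene of occludin, OCLNP1, had 0 to 10 counts per sample. MARVELD2 encodes tricellulin, which sits where 3 cells meet. It averaged 44.6 ± 3.06 CPM in control, 45.2 ± 2.13 at 0.05, 44.6 ± 3.35 at 0.5 and 43.9 ± 2.36 CPM at 5 µg/ml, with a log2 fold change of -0.02 ± 0.05 at 5 µg/ml (interval -0.12 to 0.07; adjusted p = 0.852). F11R encodes JAM-A and averaged 41.0 ± 1.43, 41.5 ± 2.51, 41.5 ± 1.28 and 43.3 ± 1.79 CPM in the same order, with 0.08 ± 0.05 at 5 µg/ml (interval -0.01 to 0.17; adjusted p = 0.325). For MARVELD2 and F11R the intervals leave out changes as large as that of CLDN1 in either direction.

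The scaffold TJP1 moved the other way from CLDN1, by a small amount with little spread. TJP1 had 178, 179, 181, 185 and 185 CPM in control samples and 190, 194, 189, 197 and 192 CPM at 0.05 µg/ml. It had 202, 193, 198, 203 and 197 CPM at 0.5 µg/ml and 208, 199, 201, 210 and 203 CPM at 5 µg/ml. Every treated sample lay above every control sample, and the samples at 0.5 µg/ml overlapped those of both other doses. TJP1 rose at 5 µg/ml by a log2 fold change of 0.17 ± 0.03 over control (interval 0.12 to 0.22; adjusted p = 4.09e-07, edgeR). At 0.5 µg/ml it rose by 0.13 ± 0.03 (adjusted p = 0.00139), the 1 call among the 9 genes in the main fit, against 2.25% of all genes tested. The value of 0.08 ± 0.03 at 0.05 µg/ml did not pass with edgeR (adjusted p = 0.17) and passed with DESeq2 (adjusted p = 0.0197). At this dose edgeR called 0 of the 9 genes in the main fit, against 0.266% of all genes. Of the 9, 1 had an unadjusted edgeR p under 0.05, against 9.13% of all genes. DESeq2 called 1 of the 5 to which it gave an adjusted p, against 203 of 8707 among all genes. The correction for GC content and length lowered the TJP1 value to 0.10 at 5 µg/ml (adjusted p = 0.00287) and to 0.08 at 0.5 µg/ml (adjusted p = 0.0839). At 0.05 µg/ml the adjusted p with this correction was 0.54 (edgeR).

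CGN encodes cingulin, a scaffold that also binds regulators of RhoA. It averaged 5.99 ± 0.936 CPM in control, 5.70 ± 0.437 at 0.05, 5.59 ± 0.860 at 0.5 and 6.53 ± 1.00 CPM at 5 µg/ml. Its log2 fold change at 5 µg/ml was 0.12 ± 0.12 (interval -0.12 to 0.36; adjusted p = 0.616, edgeR). The interval covers the rise seen for TJP1.

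**Figure D4:**
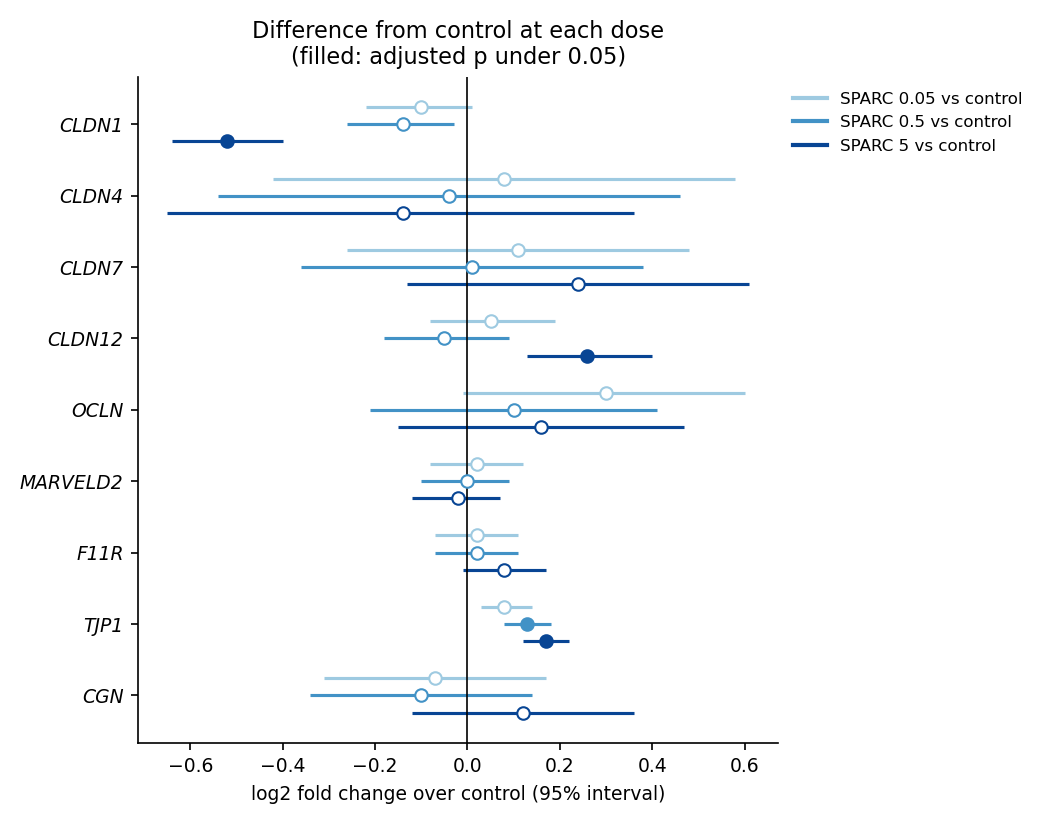
Log2 fold change over control with its 95% interval for each of the 9 genes at 0.05, 0.5 and 5 µg/ml SPARC (light to dark); filled points passed an adjusted p of 0.05 with edgeR. CLDN1 stands at -0.52 at 5 µg/ml, and the wide intervals of CLDN4, CLDN7 and OCLN belong to the genes with the lowest counts.

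The 3 comparisons with control share the same 5 control samples, so comparisons between doses and a trend over the 4 dose steps were fitted too. Between 5 and 0.5 µg/ml, 2 of the 9 genes were called, CLDN1 and CLDN12, against 4.80% of all genes. Between 5 and 0.05 µg/ml, 3 were called, against 8.28% of all genes, with TJP1 higher by 0.08 ± 0.03 (adjusted p = 0.0267) and CLDN12 higher by 0.21 ± 0.07 (adjusted p = 0.0384, edgeR). Both differences kept about their size with 1 library left out, but the calls did not all hold. The TJP1 call was lost without SPARC 0.05 replicate 1, 2, 3 or 5 or SPARC 5 replicate 1, 4 or 5 (log2 0.070 to 0.084; adjusted p = 0.0518 to 0.129), and the CLDN12 call without SPARC 0.05 replicate 1, 3, 4 or 5 or SPARC 5 replicate 1, 2, 4 or 5 (log2 0.179 to 0.214; adjusted p = 0.0655 to 0.134). Between 0.5 and 0.05 µg/ml none of the 9 was called by edgeR or DESeq2 and none had an unadjusted p under 0.05, against 0.179% of all genes called.

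In the trend, 3 of the 9 genes were called, against 12.1% of all genes. CLDN1 fell by 0.16 ± 0.02 on the log2 scale per dose step (adjusted p = 3.8e-06), TJP1 rose by 0.05 ± 0.01 (adjusted p = 1.63e-07) and CLDN12 rose by 0.07 ± 0.02 (adjusted p = 0.0228, edgeR). The trend of CLDN12 was lost without control replicate 2 or 3 or SPARC 5 replicate 1 or 4, with 0.046 to 0.064 per step and adjusted p of 0.0659 to 0.176. For CLDN1 and CLDN12 most of the difference lay between the top 2 doses, whereas the TJP1 mean was higher at each step: 182, 193, 199 and 204 CPM. A test of any difference among the 4 groups called the same 3 genes, with adjusted p of 1.69e-05 for CLDN1, 2.57e-06 for TJP1 and 0.00193 for CLDN12, against 11.0% of all genes; for the other 6 the adjusted p was 0.563 or more.

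The authors' deposited tables, 1 for each dose against control with 16045 genes each, held all 9 genes. At 5 µg/ml the authors' deposited table called CLDN1 (log2 -0.52, adjusted p = 1.41e-15), TJP1 (0.16, adjusted p = 2.6e-06) and CLDN12 (0.26, adjusted p = 0.00685). At 0.5 µg/ml the authors' deposited table called 2 of the 9, CLDN1 as above and TJP1 (0.12, adjusted p = 0.00187), and at 0.05 µg/ml it called 0 of the 9.

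The genes whose levels ran closest to CLDN1 were ranked by Pearson's r of log2 CPM over the 20 samples, among 9623 genes of at least 10 CPM. The 5 highest were SAA1 (r = 0.91), CAVIN2 (0.91), IQANK1 (0.90), SUSD2 (0.90) and SPRY1 (0.89). SAA1 is an acute-phase protein, CAVIN2 a coat protein of caveolae and SPRY1 an inhibitor of receptor tyrosine kinase signalling. The 3 lowest were PRSS23 (r = -0.96), HSPA5 (-0.95) and KRT7 (-0.95), a serine protease, the chaperone BiP and a keratin of simple epithelia. These r values hold the dose difference itself. After each group's mean was subtracted, r was 0.68 for SAA1, 0.59 for CAVIN2, 0.35 for IQANK1, 0.28 for SUSD2 and 0.37 for SPRY1, and -0.76 for PRSS23, -0.65 for HSPA5 and -0.80 for KRT7. The samples share library preparation and scaling, and the genes were picked for their r.

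Among the 9 genes, CLDN1 and TJP1 had an r of -0.72 over the 20 samples and 0.09 after group means were subtracted. CLDN1 and CLDN12 had -0.45 and 0.52. Within a dose, CLDN1 and TJP1 thus did not run opposite to each other. These are descriptions over samples that share library preparation and scaling.

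Other proteins of the junction were described from lists. Of 10 tested genes of other tight junction membrane proteins, 2 fell at 5 µg/ml and none rose, against 4.58% of all genes that fell and 7.04% that rose. EPCAM, an adhesion protein known to stabilize claudin-1 and claudin-7 at the membrane, averaged 69.2 CPM at 5 µg/ml and 86.6 CPM in control (log2 -0.32 ± 0.03; adjusted p = 1.11e-12, edgeR). CXADR, the coxsackievirus and adenovirus receptor, averaged 5.70 and 7.78 CPM (log2 -0.45 ± 0.11; adjusted p = 0.00166). Neither gene's samples overlapped between the groups. The median log2 fold change of this list was -0.077, against -0.007 for all genes tested.

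Of 18 other scaffold and cytoplasmic genes, 6 rose and 2 fell at 5 µg/ml, against 7.04% and 4.58% of all genes, with a median log2 fold change of 0.054. AMOTL2, an angiomotin that binds YAP, averaged 149 CPM at 5 µg/ml and 131 CPM in control (log2 0.18 ± 0.03; adjusted p = 1.78e-06, edgeR). ARHGEF18, an exchange factor for RhoA, averaged 28.8 and 24.0 CPM (0.26 ± 0.06; adjusted p = 0.000596). PALS1, named MPP5 in the table and a partner of Crumbs, averaged 57.5 and 50.7 CPM (0.18 ± 0.04; adjusted p = 0.000966), a call that was lost with the correction for GC content and length (0.11, adjusted p = 0.0748). SYMPK, a scaffold of messenger RNA 3′ end processing also seen at junctions, fell to 129 CPM at 5 µg/ml, against 142 CPM in control (-0.14 ± 0.03; adjusted p = 0.000242). AMOT, the other of the 2 falls, was outside the naming rule and was named after its values were seen. It fell to 0.0428 CPM at 5 µg/ml, against 0.284 CPM in control. These levels are near the floor of the counts, and DESeq2 gave AMOT no adjusted p.

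Of 12 cell polarity genes, 6 rose at 5 µg/ml and none fell, against 7.04% and 4.58% of all genes, with a median log2 fold change of 0.014. CDC42, a small GTPase, averaged 220 CPM at 5 µg/ml and 196 CPM in control (log2 0.17 ± 0.03; adjusted p = 1.09e-06, edgeR). PARD3 and PARD6G, scaffolds of the Par complex, had log2 fold changes of 0.19 ± 0.03 (adjusted p = 2.67e-06) and 0.20 ± 0.05 (adjusted p = 0.00152). Of 14 adherens junction genes, 5 rose and none fell, against the same shares of all genes, with a median of 0.077. LIMA1, an actin-bundling protein linked to alpha-catenin, averaged 277 CPM at 5 µg/ml and 187 CPM in control (0.56 ± 0.04; adjusted p = 1.55e-13). CTNNB1, beta-catenin, averaged 558 and 499 CPM (0.16 ± 0.02; adjusted p = 1.6e-08). CTNNA1, alpha-catenin, averaged 334 and 309 CPM (0.11 ± 0.02; adjusted p = 0.000419), and it was not called with library sizes alone as the scaling (0.06, adjusted p = 0.0598) or with the correction for GC content and length (0.06, adjusted p = 0.093). CDH1, E-cadherin itself, had a log2 fold change of 0.05 ± 0.03 and was not called.

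Of 13 transcription factors known to act on junction genes, edgeR called 3 higher at 5 µg/ml and none lower, against 7.04% and 4.58% of all genes, with a median of -0.008. SNAI2, a repressor that binds CAGGTG, averaged 137 CPM at 5 µg/ml and 103 CPM in control (log2 0.41 ± 0.05; adjusted p = 2.64e-06, edgeR). KLF4, a factor of epithelial differentiation, had 0.25 ± 0.06 (adjusted p = 0.00339). TWIST2, a basic helix-loop-helix factor, had 0.22 ± 0.07 (adjusted p = 0.0229), a call lost without control replicate 3 or 4 or SPARC 5 replicate 2 (log2 0.177 to 0.199; adjusted p = 0.0756 to 0.117) and without SPARC 5 replicates 2 and 5 together (0.17, adjusted p = 0.187). GRHL2 and GRHL3, activators of claudin genes in epithelia, had -0.02 ± 0.03 and -0.62 ± 0.22 and were not called by edgeR (adjusted p = 0.0538 for GRHL3). GRHL3 was called lower by DESeq2 (-0.62, adjusted p = 0.0295), and by edgeR with library sizes alone (-0.67, adjusted p = 0.0301), with only genes of at least 1 CPM (-0.63, adjusted p = 0.0392) and without SPARC 5 replicate 2 (-0.69, adjusted p = 0.0423).

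The lists' counts at 5 µg/ml depended on scaling. With library sizes alone, polarity genes had 3 rises and 2 falls, adherens junction genes 2 rises and 1 fall, scaffold genes 3 rises and 3 falls, and transcription factors 2 rises and 1 fall. With the correction for GC content and length, polarity genes had 4 rises, adherens junction genes 3, and scaffold genes 2 rises and 3 falls. The 2 falls among membrane proteins were called under both. Without SPARC 5 replicates 2 and 5, scaffold genes had 4 rises and 2 falls, polarity genes 5 rises, adherens junction genes 4 and transcription factors 2.

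**Figure D5:**
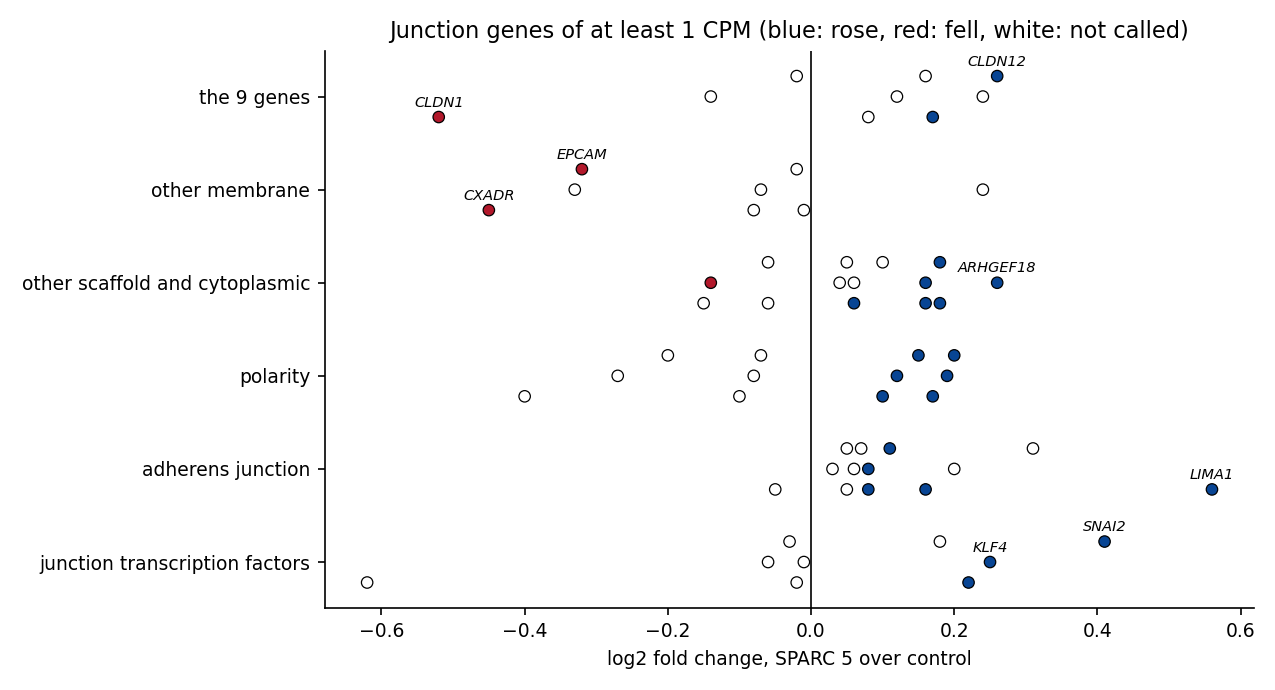
Log2 fold change at 5 µg/ml SPARC over control for the 9 genes and for genes of 5 other junction lists with a mean of at least 1 CPM; each point is 1 gene, blue where it rose, red where it fell and white where it was not called. The 8 membrane genes drawn span -0.45 to 0.24 and the 13 adherens junction genes -0.05 to 0.56.

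At 0.5 µg/ml, of 77 genes tested in the 6 lists, edgeR called 5 higher and 1 lower, against 2.25% of all genes. DESeq2 called 9 of the 55 list genes to which it gave an adjusted p, against 819 of 13154 among all genes. LIMA1 rose by 0.20 ± 0.04 on the log2 scale (adjusted p = 0.00151, edgeR). SYMPK fell by 0.12 ± 0.03 (adjusted p = 0.0108), and this call was lost without control replicate 2 or SPARC 0.5 replicate 4 (-0.107 and -0.114; adjusted p = 0.0623 and 0.057). PRKCI, an atypical protein kinase C, rose by 0.12 ± 0.03 (adjusted p = 0.0137), a call lost without control replicate 3 or SPARC 0.5 replicate 3 or 4 (0.103 to 0.112; adjusted p = 0.0597 to 0.108). AMOTL2 (0.11 ± 0.03; adjusted p = 0.0293), CDC42 (0.09 ± 0.03; adjusted p = 0.0387) and CTNNB1 (0.08 ± 0.02; adjusted p = 0.0457) passed by little. With 1 library left out at a time, AMOTL2 was lost in 5 of 10 fits (control replicates 1 and 4, SPARC 0.5 replicates 2, 3 and 4; 0.088 to 0.109), CDC42 in 7 (control replicates 1, 3 and 4, SPARC 0.5 replicates 1, 3, 4 and 5; 0.084 to 0.095) and CTNNB1 in 8 (control replicates 1, 2, 4 and 5, SPARC 0.5 replicates 1 to 4; 0.064 to 0.081). With the correction for GC content and length, edgeR lost PRKCI (0.06, adjusted p = 0.419), CDC42 (0.06, adjusted p = 0.266) and CTNNB1 (0.02, adjusted p = 0.776). Library sizes alone lost them too, and also AMOTL2 (0.08, adjusted p = 0.116). LIMA1 and SYMPK were called under both, and each setting called 1 fall among the transcription factors. With no filter, AMOTL2, CDC42 and CTNNB1 were lost. At 0.05 µg/ml edgeR called none of the 77 genes tested in the 6 lists. Of the 77, 8 had an unadjusted edgeR p under 0.05, against 9.13% of all genes. DESeq2 called none of the 40 list genes to which it gave an adjusted p.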

How the data were processed

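RNA was sequenced from 20 samples of hTCEpi in 4 groups of 5 (control and SPARC at 0.05, 0.5 and 5 µg/ml). The authors deposited a table of raw read counts per Ensembl gene; the submitters' processing notes name build GRCh38, featureCounts 2.0.3, STAR 2.7.9a, limma, edgeR and Salmon 1.5.2, without roles. Which annotation release and strand setting were used is not given in the sources used here. The authors also deposited 3 comparison tables that hold, per the file headers, log2 values per sample, log2 fold changes with intervals, and p-values with adjusted p-values.

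The table had 60871 entries for 60671 genes; for 168 genes on several entries with equal counts, CLDN12 among them, 1 entry was kept, which removed 0.278% to 0.296% of counts per sample. Genes were kept with filterByExpr (minimum count 10), which left 22938. Counts were scaled with TMM factors and compared with the robust quasi-likelihood F-test of edgeR 4.0.16 in R 4.3.3, with all 20 samples in 1 model of 4 group means and Benjamini-Hochberg adjustment over all genes tested; adjusted p under 0.05 was called. The script was tested on simulated data. The trend coded dose steps 0, 1, 2 and 3. A prior count of 2 was added for log2 CPM. DESeq2 1.42.0, other scalings and filters, a correction for GC content and length, a replicate block and fits with libraries left out were alternatives. The counts of samples in a group differed beyond counting noise (chi-square per degree of freedom 4.09 to 9.55 over 40 pairs, where noise gives 1). The labels do not say whether replicate numbers pair samples, so the main model left them out. Exon lengths came from GENCODE v29 and promoters from RefSeq (GRCh38.p14). PCR copies cannot be told from molecules.

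The 9 genes and the lists were chosen with earlier results of these data known. From each list up to 3 rises and 3 falls with the smallest p and at least 1 CPM are named, and for CLDN1 the 5 highest and 3 lowest r; other names were chosen after values were seen. P-values were not adjusted over a list.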

Additional observations from a re-analysis of the deposited data

How the results depend on the processing

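Of 63 results for the 9 genes, 12 were called. Of 1296 values under the alternatives, 1253 stayed on the same side of the threshold, 36 lost a call and 7 gained one. Only a called result can lose a call, so the 36 losses belong to the 12 called results by definition. The 1253 also hold values of results that were never called. In 0 values did a called result reverse direction, but results not called could change sign and still count among the 1253. CLDN1 at 5 µg/ml was called in all 10 other settings (log2 -0.57 to -0.52) and with each library left out (-0.547 to -0.488). Of 56 results for list and marker genes, 1174 values were computed, with 95 calls lost, 5 gained and 0 reversed.

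Counts of genes called moved as follows. At 0.5 µg/ml over control, DESeq2 called 819 against 517. At 0.05 µg/ml over control, DESeq2 called 203 and the correction for GC content and length left 14, against 61. Between 0.5 and 0.05 µg/ml, 89 were called with DESeq2, 70 with no filter, 80 with only the 2 groups, and 64 with the GC and length correction, against 41. With 1 library left out, counts were 267 to 608 at 0.5 µg/ml (267 without SPARC 0.5 replicate 4 and 333 without control replicate 3), 22 to 82 at 0.05 µg/ml (22 to 39 without SPARC 0.05 replicate 2, 3 or 5 or control replicate 2, 3 or 4), 15 to 52 between those doses (15 to 25 without SPARC 0.5 replicate 4 or 5 or SPARC 0.05 replicate 1, 2, 3 or 5), 2236 to 2638 at 5 µg/ml, 850 to 997 between 5 and 0.5, 1543 to 1804 between 5 and 0.05, and 2419 to 2772 in the trend. Library sizes alone turned the split of rises and falls at 5 µg/ml to 999 and 2191, and the GC and length correction to 1281 and 1404, against 1615 and 1050; at 0.5 µg/ml they gave 165 and 412, and 183 and 178, against 312 and 205. Library sizes alone gave 33 and 36 at 0.05 µg/ml (against 43 and 18), 562 and 660 between 5 and 0.5 (against 759 and 341), 842 and 1480 between 5 and 0.05 (against 1271 and 629), 21 and 14 between 0.5 and 0.05 (against 36 and 5) and 1007 and 2341 in the trend (against 1679 and 1103).

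Of the 9 genes, the number called at 0.5 µg/ml was 2 with no filter and 0 with the GC and length correction, against 1, and 1 to 2 with a library left out. At 0.05 µg/ml DESeq2 called 1, against 0. Between 5 and 0.05 µg/ml library sizes alone and the GC and length correction left 1, against 3, and leaving out a library gave 1 to 3. CLDN12 at 5 µg/ml was not called with the GC and length correction (0.18, adjusted p = 0.0612), nor was its trend with library sizes alone (0.05, adjusted p = 0.0977) or the correction (0.04, adjusted p = 0.206). Per kb, the CLDN1 share of the claudins was 94.4%, 93.7%, 94.0% and 90.9% from 0 to 5 µg/ml. Of the 8 genes named beside CLDN1, 5 kept an r of at least 0.5 in size after group means were subtracted. The cause of these shifts was not tested.

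Same-numbered samples deviated together weakly if at all (30 pairs, r -0.08 to 0.10, 0 over 0.1). Their median r was 0.03, against -0.01 for samples with different numbers. Of the 20 samples, 8 correlated best with their own number out of the 5 numbers. These values do not settle whether the numbers pair samples. With a replicate block, 66 genes were called between 0.5 and 0.05 µg/ml (108 with the GC and length correction), and of the 9 genes 2 at 0.5 µg/ml and 1 at 0.05 µg/ml, where CLDN1 passed (-0.14, adjusted p = 0.000114, and -0.10, adjusted p = 0.0347). With the block and the correction together, 1 of the 9 was called at 0.05 µg/ml and 1 between 5 and 0.05 µg/ml. CLDN4, CLDN7 and OCLN had under 200 counts per sample, and their intervals were the widest of the 9 genes.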
